A study of Mus musculus with 8 samples.

Results

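Deaf1, Lmo4, Ldb1 and Lmo2 encode a DNA-binding factor, a pair of LIM-only proteins and the adaptor that binds their LIM domains, and 4 of the 35275 entries of the expression table carry these symbols. Deaf1 was chosen because its values were lower in every smoke library, so its difference between the groups is given as a description without a test, while the other members were chosen by their names as partners. Of the 4 genes, 3 reached a mean of 1 FPKM (fragments per kilobase of gene, scaled to the mapped reads of the library, so a level per length and per depth) in at least 1 group and were compared, and Lmo2 did not reach it. Among the 9794 genes that did, the level of Ldb1 lay above 85.6% of genes, that of Deaf1 above 42.4% and that of Lmo4 above 31.0%.

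RNA was sequenced from lens fiber cells (FC) of C57BL/6 mice (C57BL/6J by the methods) exposed to cigarette smoke (CS) and of age-matched, untreated control (Ct) mice of the same strain. The mothers of the CS-exposed mice were put in a whole-body smoke chamber late in pregnancy, a few days before the birth, and the exposure of 5 hours a day on 5 days a week came to 3.5 months, while the untreated Ct mice were kept in the animal facility. Each group held 4 libraries, and each library was a separate pool of the right lenses of 4 mice, from which the epithelium had been pulled away under a microscope. The methods give 2 male and 2 female pools a group, and the labels used here do not say which pool is which.

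Relative to the first untreated Ct library, depth ran from 0.91 to 1.17, and the median tested gene rested on 313 reads in a library. All 11 fiber cell markers, crystallins and connexins among them, were detected, with a summed level of 193000 to 201000 FPKM in untreated Ct libraries and 188000 to 197000 FPKM in CS-exposed libraries. Markers of retinal rods summed to 11.3 to 30.6 FPKM in untreated Ct libraries and to 33.3 to 98.1 FPKM in CS-exposed libraries, without overlap, and 11 of 11 were higher in CS-exposed mice. Markers of the retinal pigment epithelium were at 0.922 to 1.85 and 2.7 to 25.6 FPKM, with 5 of 6 higher and Best1 at 0 in all libraries. Markers of erythroid cells were at 0.265 to 1.73 and 0.5 to 22.8 FPKM, the highest in the fourth CS-exposed library. Endothelial markers stayed at or below a sum of 0.49 FPKM and leukocyte markers at or below 0.64 FPKM in every library. The part of these cells in the results below was not tested.

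Deaf1 is a transcription factor that holds DNA through its SAND domain and other proteins through a zinc-binding MYND domain. It recognises short motifs with the core TTCG, is described as acting on its own promoter, and is needed for normal brain development and for the display of tissue antigens to the immune system. Lmo4 and Lmo2 are LIM-only proteins, which bind no DNA themselves and join DNA-bound factors into complexes. Ldb1 is the adaptor of these complexes: it pairs with itself and grips LIM domains, so that factors on separate stretches of DNA are brought together. Lmo4 binds Deaf1 as well as Ldb1, and Lmo2 is best known from blood-forming and endothelial cells. Fiber cells make up the bulk of the lens and lose their nuclei as they mature.

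The stretch upstream of Deaf1 is shown because it holds the motif that the Deaf1 protein itself recognises. It lies on GRCm38.p6 at chr7:141327726-141327887, 162 bases between the RefSeq start of Deaf1 and the first protein-coding transcript of the neighbouring gene Tmem80, and is written on the minus strand, that of Deaf1, with TTCG in capitals:
Deaf1 upstream: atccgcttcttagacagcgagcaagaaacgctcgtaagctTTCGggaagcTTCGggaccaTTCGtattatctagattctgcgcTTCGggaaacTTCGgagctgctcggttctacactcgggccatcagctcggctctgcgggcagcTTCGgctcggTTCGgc
The stretch holds TTCG 7 times on the printed strand and 0 times on the other. In the RefSeq window that runs from 250 bases before this start of Deaf1 to 50 bases after it (chr7:141327676-141327975), TTCG stood 11 times, 10 of them on the strand of the gene and 1 on the other. No other window of this length in the table of 32851 windows of 27025 genes held as many on both strands together (0.00304% of windows, Deaf1 alone), 55.3% held none and 44.7% held at least 1. A second RefSeq start of Deaf1 (window chr7:141338734-141339033) held none. The window of Tmem80 overlaps that of Deaf1 on the opposite strand and held 7, a number that 17 windows (0.0517%) reached. Lmo4 and Ldb1 each had 3 windows in the table with 1, 2 and 0 matches, so that neither gene had a window beyond 2. A match of 4 letters is a description of the sequence and says nothing of binding in these lenses.

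**Figure D1:**
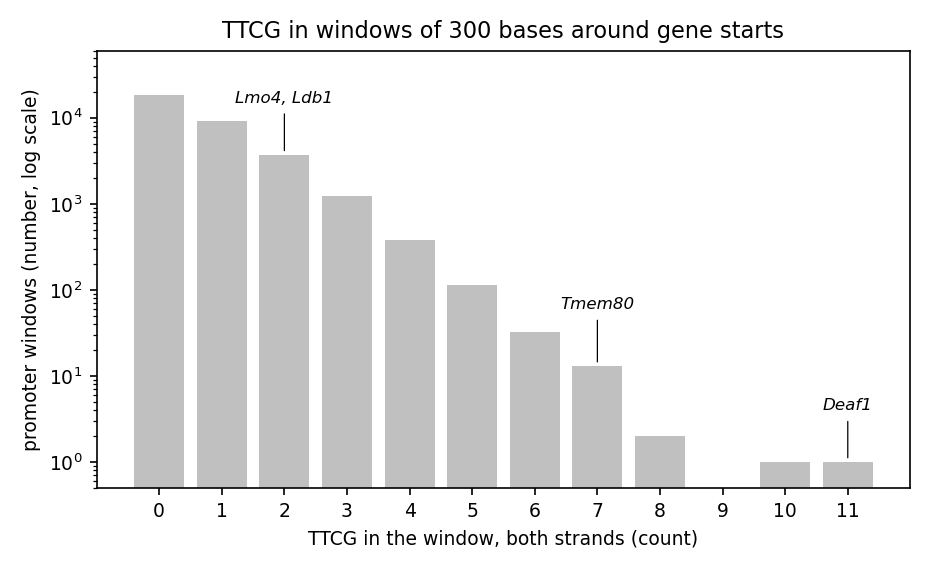
The number of RefSeq promoter windows of 300 bases (y axis, log scale) by how many times TTCG occurs in them on both strands (x axis). Most windows hold none or 1, the windows richest in TTCG for Lmo4 and Ldb1 hold 2, that of Tmem80 holds 7, and that of Deaf1 stands alone at 11.

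Deaf1 was expressed at 4.63, 4.09, 4.30 and 4.06 FPKM in the 4 untreated Ct libraries and at 3.57, 2.92, 2.76 and 3.12 FPKM in the 4 CS-exposed libraries. Each CS-exposed library lay below each untreated Ct library, and 0.492 FPKM separated the highest CS-exposed from the lowest untreated Ct value. The group means were 4.27 ± 0.265 FPKM (SD, n = 4) in untreated Ct mice and 3.09 ± 0.350 FPKM (SD, n = 4) in CS-exposed mice, so that CS-exposed FC held 72.4% of the untreated Ct level, a log2 difference of -0.46. These values chose the gene and carry no test. Groups that do not overlap, with CS-exposed mice lower, were found for 126 of the 9794 genes tested (1.29%).

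The values of Deaf1 rested on 202, 177, 219 and 161 reads in untreated Ct libraries and on 165, 148, 124 and 148 reads in CS-exposed libraries. The counting error of a single library was thus 6.76 to 8.98% of its value. The coefficient of variation between libraries was 6.2% in untreated Ct mice and 11.3% in CS-exposed mice.

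Xist, the RNA of the inactive X chromosome, was at or below 0.0113 FPKM in replicates 1 and 2 of both groups and at 41.1 to 49 FPKM in replicates 3 and 4. Within replicates 1 and 2, mean Deaf1 was 4.36 FPKM in untreated Ct and 3.25 FPKM in CS-exposed mice (74.4%). Within replicates 3 and 4 it was 4.18 and 2.94 FPKM (70.3%). Since no CS-exposed value of Deaf1 reached an untreated Ct value, any such split shows it lower, and these values are a description. In pooled tissue, fewer cells that express a gene and less of its RNA per cell cannot be told apart.

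Deaf1 lies on chromosome 7 of GRCm38 from 141297180 to 141327690 on the minus strand, and no other annotated gene of GENCODE overlapped it. The second RefSeq start of Deaf1 (window chr7:141338734-141339033) lies beyond Tmem80 (141327739 to 141337156, plus strand). By these positions, a transcript from that start would span Tmem80. The sources used here do not say which annotation was used for counting.

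**Figure D2:**
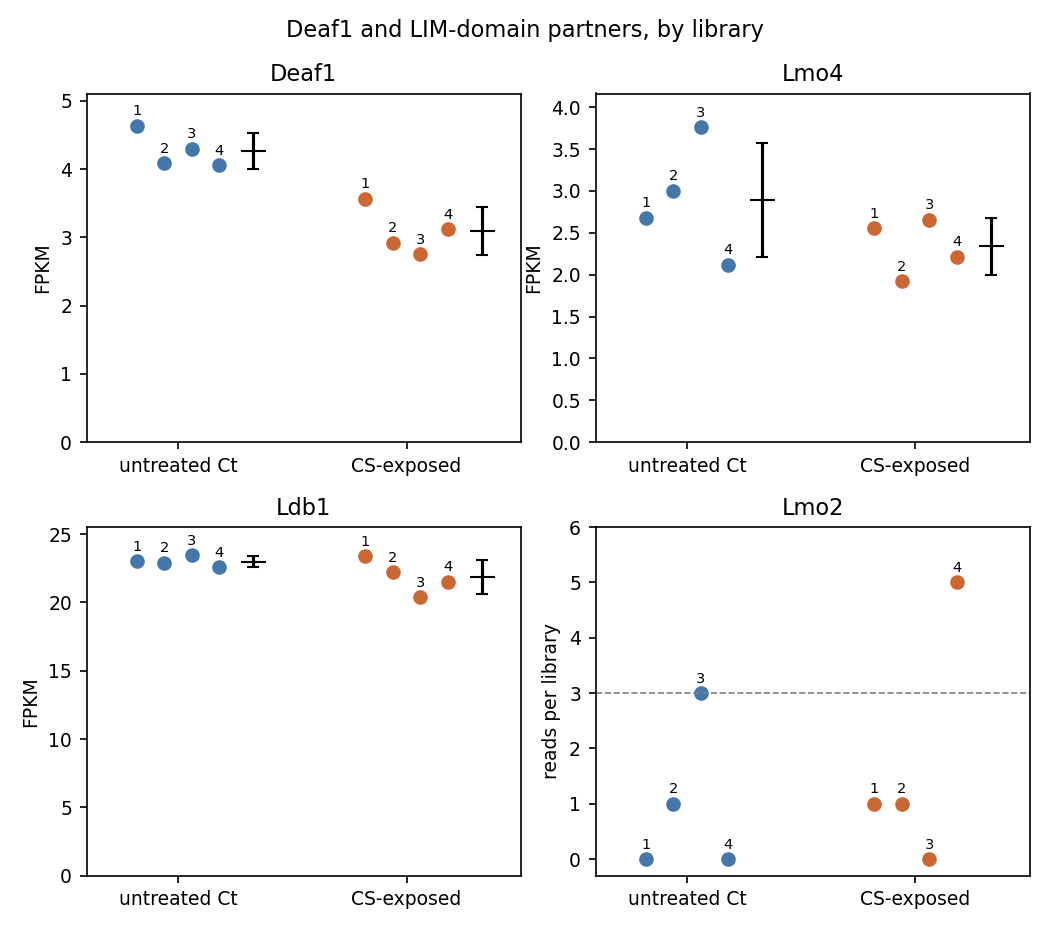
Level of each member by library, in FPKM for Deaf1, Lmo4 and Ldb1 and in reads for Lmo2, with the replicate number above each point and the mean ± SD (n = 4) in black beside the FPKM values. The groups are apart for Deaf1 and overlap for Lmo4 and Ldb1, and Lmo2 passes 3 reads (dashed line) in 1 library.

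Lmo4, the LIM-only protein that binds Deaf1, was measured at 2.68, 3.004, 3.76 and 2.12 FPKM in untreated Ct libraries and at 2.56, 1.92, 2.66 and 2.22 FPKM in CS-exposed libraries. The groups overlapped, and 1 CS-exposed library lay below every untreated Ct library. The means were 2.89 ± 0.686 FPKM (SD, n = 4) and 2.34 ± 0.336 FPKM (SD, n = 4). The log2 difference of -0.28 (SE 0.18, 95% interval -0.66 to 0.11) did not pass the test (limma, Benjamini-Hochberg adjusted p = 0.956, unadjusted 0.14). By the exact permutation test over all 70 assignments of the libraries, two-sided p was 0.2. Over all genes tested, 1 (0.0102%) had an adjusted p under the 0.05 threshold, while at an unadjusted p under it CS-exposed mice had 204 genes lower (2.08%) and 269 higher (2.75%).

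Of the tested members, Lmo4 had the highest coefficient of variation between untreated Ct libraries (23.7%). It rested on 64 to 146 reads a library, a counting error of 8.28 to 12.5%. Its highest value was in the third untreated Ct library, where the markers of lens epithelium, such as Foxe3 and Cdh1, also had their highest sum of 146 FPKM. Foxe3 was at 63.99 FPKM there and at 25.1 to 34.8 FPKM in the other untreated Ct libraries. Sox2, which is also in the sum, did not peak there. It was at 37.57 FPKM, below the first (39.97 FPKM) and second (37.69 FPKM) untreated Ct libraries. The lowest untreated Ct value of Lmo4 was in the fourth library, where the epithelial sum was lowest in the group at 85.1 FPKM. In CS-exposed libraries the highest Lmo4 value (2.66 FPKM) also went with the highest epithelial sum (111 FPKM), but the lowest Lmo4 value (1.92 FPKM, CS-exposed library 2) went with a sum of 100.8 FPKM, and the lowest sum (82.4 FPKM, CS-exposed library 4) with 2.22 FPKM of Lmo4. The part of epithelial RNA in the Lmo4 values was not tested. Without the third untreated Ct library, the log2 difference of Lmo4 was -0.15 (limma adjusted p = 1, unadjusted 0.406), and without the fourth it was -0.41 (limma adjusted p = 0.944, unadjusted 0.0295). Lmo4 lies on chromosome 3 of GRCm38 from 144188530 to 144205220 on the minus strand and overlaps Gm43445, an intronic transcript of the same strand that shares no exonic base with it and was not analysed here.

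Ldb1, the adaptor of LIM complexes, was the most highly expressed member, with 23.0, 22.9, 23.5 and 22.6 FPKM in untreated Ct libraries and 23.4, 22.2, 20.4 and 21.5 FPKM in CS-exposed libraries. Below every untreated Ct value lay 3 of the 4 CS-exposed libraries, and the first CS-exposed library was within the untreated Ct range. The means, 22.99 ± 0.378 FPKM (SD, n = 4) and 21.9 ± 1.26 FPKM (SD, n = 4), gave a log2 difference of -0.07 (SE 0.06, 95% interval -0.20 to 0.06). The difference did not pass the test (limma adjusted p = 0.961, unadjusted 0.245, two-sided exact permutation p = 0.143). With 937 to 1253 reads a library and a counting error of 2.83 to 3.27%, Ldb1 was the most precisely measured member. Within replicates 1 and 2, CS-exposed mice held 99.3% of the untreated Ct level of Ldb1, and within replicates 3 and 4 they held 91%.

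Ldb1 lies on chromosome 19 of GRCm38 from 46031570 to 46045214 on the minus strand. Its exons share 177 bases with those of Pprc1 on the opposite strand, which had a mean of 3.05 FPKM. The sources used here do not say whether reads were counted by strand, so reads in the shared bases may come from either gene.

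Lmo2, the LIM-only protein of blood-forming cells, was at the edge of detection. Its reads numbered 0, 1, 3 and 0 in untreated Ct libraries and 1, 1, 0 and 5 in CS-exposed libraries, 11 in all. Its level was at most 0.0756 FPKM in untreated Ct and 0.135 FPKM in CS-exposed libraries, and 3 reads, the number that a count of 0 allows, were worth 0.0756 to 0.0972 FPKM depending on the library. A difference between the groups was not detectable at this depth, and no fold is given. The CS-exposed library with 5 reads of Lmo2 was the fourth, the one with the highest sum of erythroid markers (22.8 FPKM). The untreated Ct library with 3 reads was the third, the one with the lowest erythroid sum (0.265 FPKM). CS-exposed library 3, with an erythroid sum of 4.23 FPKM, had 0 reads of Lmo2. A link between the erythroid markers and Lmo2 was not tested. Lmo2 lies on chromosome 2 of GRCm38 from 103957986 to 103981878 on the plus strand, and overlaps 4931422A03Rik on the other strand, with which it shares no exonic base and which had a mean of 0.228 FPKM.

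Per length, the RNA of Ldb1 stood well above that of Lmo4 and Deaf1. The ratio of Lmo4 to Ldb1 FPKM was 0.0939 to 0.160 in untreated Ct libraries and 0.0865 to 0.130 in CS-exposed libraries, and the groups overlapped. The ratio of Deaf1 to Ldb1 was 0.179 to 0.201 and 0.132 to 0.153, without overlap, which follows the values that chose Deaf1. Deaf1 and Lmo4 were near each other, and Deaf1 was the higher in all 8 libraries, at 1.14 to 1.92 times the Lmo4 level in untreated Ct and 1.04 to 1.52 times in CS-exposed libraries.

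Of the 6 genes listed as LIM-domain-binding cofactors and their partners, 5 were tested and none passed the test (median log2 difference 0.045, Ldb1 included). Ssbp3 and Ssbp2, single-stranded DNA-binding proteins that shield Ldb1 from breakdown, were at 17.3 and 8.79 FPKM in untreated Ct mice, with log2 differences of -0.0025 and 0.06. Rlim, a ubiquitin ligase that marks LIM cofactors for degradation, had a log2 difference of 0.04. Ssbp4 had the widest log2 difference of the 30 list genes tested besides Deaf1, 0.45 (SE 0.31, limma adjusted p = 0.956), from 1.42 ± 0.672 to 1.90 ± 0.596 FPKM (SD, n = 4). Ldb2, the second LIM-domain-binding adaptor, had a mean of 0.402 FPKM and was not tested. Ldb1 was thus the only one of the 2 adaptors above the minimum level.

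Among LIM-only proteins Lmo4 was the only one tested, since Lmo1 reached at most 0.939 FPKM in a library and Lmo3 0.0276 FPKM. None of the 12 LIM-homeodomain factors, the DNA-binding partners of Ldb1 in many embryonic tissues, reached the minimum, and 4 were listed at 0 in all libraries. Of the 12 basic helix-loop-helix and GATA partners of LIM-only proteins, 3 were tested. These were the widely expressed E proteins Tcf3, Tcf4 and Tcf12, with log2 differences of 0.07, -0.07 and -0.18 and limma adjusted p values from 0.956 to 0.985. Tal1, Gata1 and Gata4 were listed at 0, and Gata2 and Gata3 had means of 0.599 and 0.582 FPKM. Other binding partners of Lmo4 were represented by the chromatin regulators Mta1 and Hdac2, with log2 differences of -0.04 and -0.02, and 3 of 5 were not tested.

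No tested relative that shares a domain with Deaf1 passed the test. Of the 9 SAND-domain genes, 4 besides Deaf1 were tested, and their log2 differences ran from -0.16 for Gmeb1 to 0.07 for Skil (Gmeb2 -0.07, Ski 0.05), with limma adjusted p values of at least 0.985. Aire, the SAND-domain regulator of the thymus, and the interferon-induced Sp100, Sp110 and Sp140 were not tested. Of the 21 MYND-domain genes, 11 besides Deaf1 were tested, with a median log2 difference of -0.0015 and a range of -0.24 (Smyd5) to 0.14 (Smyd3), both with a limma adjusted p = 0.956. Smyd2, a lysine methyltransferase, Egln1, an oxygen sensor, and Zmynd11, a reader of modified histone H3, were the most highly expressed, at means of 39.2, 24.0 and 18.0 FPKM, with log2 differences of 0.03, -0.02 and -0.01.

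Partners and described targets of Deaf1 showed no difference past the test (4 of 5 tested, median log2 difference 0.073). Hnrnpa2b1, an RNA-binding protein whose promoter was an early described target, was at 49.6 FPKM in untreated Ct and 51.9 FPKM in CS-exposed mice (log2 difference 0.07, SE 0.07, limma adjusted p = 0.978). Eif4g3, a translation initiation factor, was at 8.01 and 8.67 FPKM (log2 difference 0.11, SE 0.08, limma adjusted p = 0.956). Xrcc6 and Xrcc5, the Ku subunits of DNA repair that bind Deaf1, had log2 differences of -0.14 and 0.08 (limma adjusted p = 0.963 and 0.991). Htr1a, a serotonin receptor, did not exceed 0.0228 FPKM in a library.

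Over all lists and without Deaf1, 30 of 72 genes were tested. None had an adjusted or an unadjusted limma p under 0.05, in either direction, by the fit on FPKM or by limma-voom on reads, and none had groups that did not overlap. Over all genes tested, the shares at an unadjusted p under 0.05 were 2.08% lower and 2.75% higher, and the shares without overlap 1.29% lower and 1.8% higher, so a count of 0 among 30 genes is near the background. The median log2 difference over the 30 genes was -0.002, from -0.28 (Lmo4) to 0.45 (Ssbp4), beside 0.0043 over all genes tested, whose median absolute difference was 0.084. Leaving out 1 untreated Ct library brought a single gene under an unadjusted p of 0.05 in each of 4 cases (Smyd5 in 2, Ssbp4 and Lmo4 in 1 each).

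**Figure D3:**
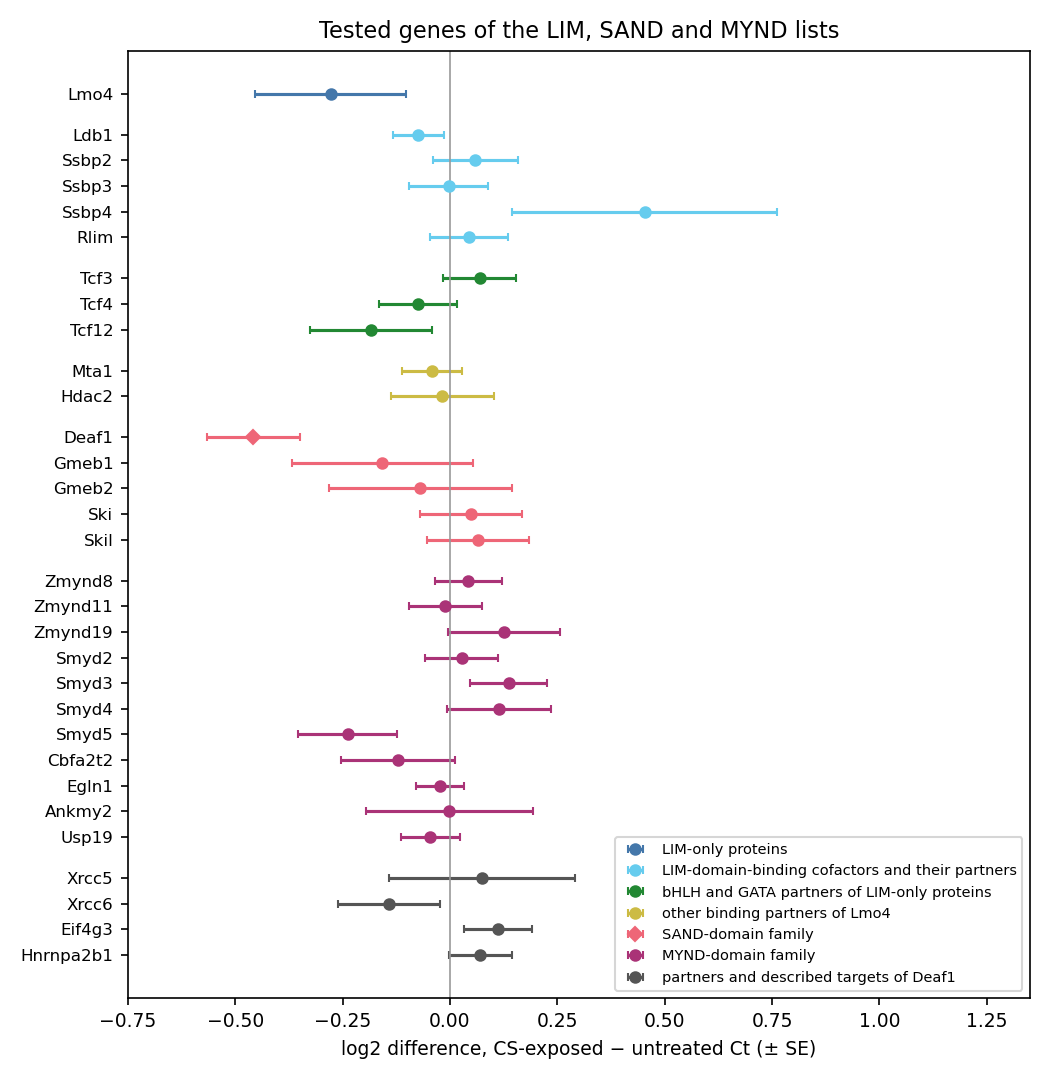
Log2 difference between CS-exposed and untreated Ct mice on the log2(FPKM + 0.1) scale (x axis, point ± SE, 4 libraries a group) for each tested gene of the lists, coloured by list, with Deaf1 as a diamond under the SAND-domain family. Deaf1 lies at -0.46, and the other 30 genes run from -0.28 to 0.45.

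Of the 3 nearest tested genes on each side of Deaf1, 3 had a log2 difference below 0 and 3 above it. Tmem80, a membrane protein gene that is read in the opposite direction, was measured at 7.94, 8.75, 9.60 and 8.54 FPKM in untreated Ct libraries and at 10.1, 9.98, 10.2 and 10.1 FPKM in CS-exposed libraries. In GENCODE, 48 bases separate the gene from Deaf1, because a non-coding transcript of Tmem80 starts within the printed stretch, ahead of its first protein-coding transcript. Each CS-exposed library of Tmem80 lay above each untreated Ct library, as in 176 of the genes tested (1.8%). The means were 8.71 ± 0.688 and 10.1 ± 0.104 FPKM (SD, n = 4), a log2 difference of 0.21 (SE 0.08, 95% interval 0.05 to 0.38). The unadjusted limma p was 0.0165 and the exact permutation p was 0.0286, the smallest that 4 against 4 libraries can give, while the adjusted p of limma was 0.956. The difference did not pass the correction over all genes.

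The values of Tmem80 rested on 279 to 416 reads. Within replicates 1 and 2 the CS-exposed mean was 120% of the untreated Ct mean, and within replicates 3 and 4 it was 112%. Since the groups did not overlap, any such split shows Tmem80 higher, and these values are a description. Without the first untreated Ct library the limma p of Tmem80 was 0.0521, and by limma-voom on reads it was 0.0642. Deaf1 was lower and Tmem80 higher in CS-exposed libraries, the first as a description and the second without passing the adjustment, and whether the differences are linked was not tested.

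Farther on the same side lay Taldo1, an enzyme of the pentose phosphate pathway, with a log2 difference of -0.11 (limma adjusted p = 0.956), and Cend1, a neuronal cell cycle gene. Cend1 was at 1.16, 1.81, 2.08 and 2.20 FPKM in untreated Ct libraries and 1.48, 0.69965, 0.534 and 1.60 FPKM in CS-exposed libraries, on 19 to 84 reads. The groups overlapped, and the log2 difference of -0.79 (SE 0.33) had a limma p of 0.0357, an adjusted p of 0.956 and a two-sided exact permutation p of 0.114. Leaving out any 1 of 5 libraries (untreated Ct 2, 3 or 4, CS-exposed 2 or 3) raised the limma p of Cend1 to between 0.0654 and 0.109. On the other side of Deaf1, the dopamine receptor gene Drd4, which ends 715 bases away, was at 10.9 and 11.02 FPKM (log2 difference 0.02, limma adjusted p = 0.995). Beyond it, Sct, which encodes secretin, and Phrf1 had log2 differences of -0.17 and 0.02 (limma adjusted p = 0.976 and 0.995).

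**Figure D4:**
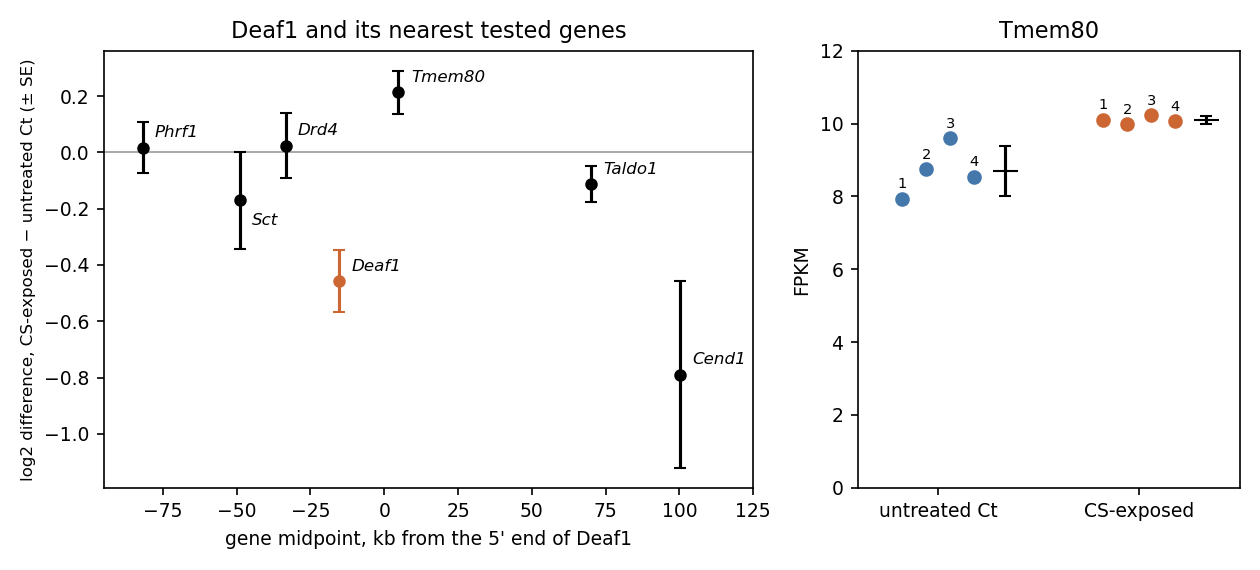
Left, log2 difference between CS-exposed and untreated Ct mice (point ± SE) against the distance of each gene's midpoint from the 5′ end of Deaf1 in kb, for Deaf1 and its 3 nearest tested genes on each side. Right, FPKM of Tmem80 by library with the mean ± SD (n = 4): the CS-exposed libraries sit between 9.98 and 10.2 FPKM, above the untreated Ct libraries at 7.94 to 9.60 FPKM.

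Windows with at least 7 matches belonged to 17 genes, of which 14 were tested, and the 12 besides Deaf1 and Tmem80 had log2 differences of -0.10 to 0.46, 5 below and 7 above 0. The gene at 0.46, Rab10os, was the only one of the 12 with an unadjusted limma p under 0.05 (0.00901, adjusted p = 0.956) and is named after its value was seen. Over all genes tested, 2.08% were lower and 2.75% higher at this threshold, so a count of 1 among 12 genes is near the background. Tmem80, which is not among the 12, had an unadjusted limma p of 0.0165 and was higher as well.

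The genes whose values ran most like those of Deaf1 over the 8 libraries were Gm15860, Necap2, Zfp414, Afg3l1 and Gm11520, with Pearson's r of 0.935, 0.931, 0.918, 0.916 and 0.908 on the log2(FPKM + 0.1) scale. Each of them was lower in every CS-exposed than in every untreated Ct library, so the likeness includes the difference that chose Deaf1. Ldb1 followed as gene 63 of the list (r = 0.794) and Lmo4 as gene 736 (r = 0.516). After the group means were taken off, the most alike were Uqcrb, Nploc4, Gfra1, Aida and Taf4a, with r of 0.961, 0.952, 0.943, 0.923 and 0.920. Ldb1 then stood at 102 (r = 0.788) and Lmo4 at 2736 (r = 0.167). These are likenesses over 8 libraries that share depth and pooled tissue, given as a description.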

How the data were processed

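The members and all gene lists were chosen with earlier results of these data known. Paired reads of 150 bases were aligned to GRCm38 with STAR 2.5 and counted with HTSeq 0.6.1, and FPKM per library were deposited by the authors. The annotation release and strand setting are not given in the sources used here. A log2 fold change and p-values that the authors made with DESeq2 were deposited as well and were not used, nor were the authors' mean FPKM. Genes whose mean reached 1 FPKM in a group entered the test, made on log2(FPKM + 0.1), which understates changes of low genes, with limma 3.58.1 in R 4.3.3 (lmFit, eBayes with trend, two-sided, Benjamini-Hochberg over 9794 genes), checked on simulated data. Whole reads were recovered from the steps of FPKM for 99.79% of these genes, within 0.05 reads. Counting errors cover counting only. Single values were also compared by an exact permutation test over 70 assignments. Named are the members, list genes with p under 0.05 and up to 3 others per list by level, neighbours, overlapping genes and the 5 genes most like Deaf1, and further list genes where a list is described. Promoter windows are from RefSeq (GRCm38.p6) and other positions from GENCODE (GRCm38). Lmo2 has no window in the table. Both strands were searched for TTCG, overlaps with other motifs not considered. Python 3.11.15, pandas 2.3.3 and matplotlib 3.10.9 were used for the rest. Alternatives were other pseudocounts, filters, scalings and variance models, the replicate number as a block, Xist level as a covariate, limma-voom on reads and leaving out each library. Those of Tmem80 and Cend1 were added after seeing the data.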

Additional observations from a re-analysis of the deposited data

Results flagged for a closer look

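In 76 groups of 4 libraries, 2 had a library far from the others by Dixon's test, where chance gives about 1 in 20, or 3.8. Mta1 was at 19.6 FPKM in untreated Ct 1 beside 16.4 to 16.9 FPKM in the other untreated Ct libraries. Gmeb1 was at 1.26 FPKM in untreated Ct 1 beside 0.978 to 1.03 FPKM.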

How the results depend on the processing

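The log2 difference of Deaf1 ran from -0.53 to -0.37 over 18 alternatives, and its direction is set by how the gene was chosen. Lmo4 ran from -0.41 to -0.15 over 19 and Ldb1 from -0.11 to -0.04 over 20, with adjusted p of 0.906 to 1 for both, and an unadjusted p under 0.05 for Lmo4 without the fourth untreated Ct library only. Without CS-exposed replicate 3, Ldb1 was at -0.04. Deaf1 and Lmo4 were below the filter of 5 FPKM. Tmem80 ran from 0.17 to 0.26 over 19 alternatives, with p under 0.05 in 17, and Cend1 from -1.01 to -0.46 over 18, with p under 0.05 in 12. Without any filter, Rbbp8 was the only list gene with p under 0.05.

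Over all genes, the count with an adjusted p under 0.05 was 1 as reported, 0 with no filter, 0 without a trend, 2 with limma-voom and 0 to 1 on leaving out a library. The lower and higher counts at an unadjusted p under 0.05 were 204 and 269 as reported, 405 and 457 with no filter, and 78 and 148 at 5 FPKM. Leaving out a library gave 159 to 286 lower and 220 to 313 higher. Lower and higher counts were 249 and 249 without a trend, 286 and 220 without CS-exposed replicate 3 (329 and 259 without overlap), and 248 and 231 without untreated Ct replicate 4 (298 and 268). Centring on the median, which by construction takes off a shift of a whole library, gave 235 and 239 (148 and 148). Genes whose groups did not overlap numbered 126 lower and 176 higher as reported. They numbered 227 lower and 249 higher with no filter, and 38 lower and 95 higher at 5 FPKM. On leaving out a library they numbered 197 to 329 lower and 259 to 374 higher, where fewer libraries make it easier not to overlap. The cause of the other shifts was not tested beyond the number of genes each filter leaves.

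Deviations of same-numbered libraries from their group means correlated at 0.012 to 0.161, those of differently numbered libraries at -0.126 to 0.0552, and not every library was nearest to its own number, so the numbers were not taken as pairs. With the replicate block, 5 genes had an adjusted p under 0.05, and no call of Lmo4, Ldb1, Tmem80 or Cend1 changed. Depth limits Lmo2, with 11 reads in all, and Lmo4 and Deaf1, where the counting error of a library reaches 12.5% and 8.98%.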
